A study of Homo sapiens with 12 samples.

Results

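The serpins are the gene family of the serine protease inhibitors. They were taken as every protein-coding gene whose GENCODE symbol is SERPIN followed by a letter and a number, which gave 35 of 19967 protein-coding genes and of 61533 gene IDs. Their RNA was compared among 3 established human cell lines, all labelled wild type, with 4 libraries of total RNA each. PEO-4 comes from the ascites of a high-grade serous ovarian carcinoma, collected after clinical resistance, SKOV-3 is an ovarian line from ascites labelled serous cystadenocarcinoma that the study describes as clear cell carcinoma, and T1074 is a line of ovarian epithelial cells immortalized with SV40. Each line was grown in a medium of its own, so that line and medium cannot be told apart, and each kind of tissue is represented by a single line. Nothing in the sources says that replicates came from separate cultures, and the p-values therefore reflect the spread between libraries, which may be technical.

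Most serpins are suicide inhibitors. A protease cuts the exposed reactive loop of the serpin after a residue called P1, the loop then inserts into the body of the serpin, and the trapped protease is distorted and inactive. The P1 residue largely sets which protease is met: arginine draws trypsin-like proteases such as thrombin and the plasminogen activators, and leucine draws chymotrypsin-like ones. Clades A, C, D, E, F, G and I are mostly secreted and act on coagulation, fibrinolysis, complement and matrix, whereas clade B stays largely within the cell and protects it from its own proteases and from those of leukocytes. SERPINH1, SERPINB5 and a few others do not inhibit proteases.

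The coding sequence of the reactive loop is shown for 7 inhibitory serpins that reached a mean of 10 CPM (counts scaled to a common library size) in at least 1 line, because the loop is the part in which these genes differ in target. Each stretch was read from the GENCODE 44 transcript on GRCh38, 5′ to 3′ on the coding strand, and covers the 54 bases that encode the residues before the cleaved bond and the first ones after it, with the codon of P1 in capitals.
SERPINE2: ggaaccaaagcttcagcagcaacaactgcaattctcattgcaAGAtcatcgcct
SERPINB6: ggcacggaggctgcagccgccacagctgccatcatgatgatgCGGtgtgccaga
SERPINB8: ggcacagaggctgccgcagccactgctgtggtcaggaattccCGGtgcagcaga
SERPING1: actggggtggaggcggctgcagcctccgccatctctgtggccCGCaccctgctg
SERPINA3: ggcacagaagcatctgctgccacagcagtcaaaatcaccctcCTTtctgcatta
SERPINB9: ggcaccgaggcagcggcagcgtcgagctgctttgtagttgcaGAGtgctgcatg
SERPINB1: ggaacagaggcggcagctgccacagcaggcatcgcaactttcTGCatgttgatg
The codon in capitals reads arginine in SERPINE2, SERPINB6, SERPINB8 and SERPING1, leucine in SERPINA3, glutamate in SERPINB9 and cysteine in SERPINB1. Granzyme B, the cytotoxic protease that SERPINB9 inhibits, cleaves after acidic residues. The stretches lie at chr2:223977599-223980335 (SERPINE2, minus strand), chr6:2948397-2948450 (SERPINB6, minus strand), chr18:63987126-63987179 (SERPINB8, plus strand), chr11:57614432-57614485 (SERPING1, plus strand), chr14:94623647-94623700 (SERPINA3, plus strand), chr6:2890265-2890318 (SERPINB9, minus strand) and chr6:2833707-2833760 (SERPINB1, minus strand). That of SERPINE2 runs across a splice junction, and the others lie within the last coding exon.

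Expected counts added up to between 38690954 and 47148161 per PEO-4 library, between 47340136 and 55739060 per SKOV-3 library, and between 19780836 and 38583368 per T1074 library, with the lowest total in T1074 replicate 1. Of 8 epithelial markers, EPCAM, CDH1, PAX8 and MUC16 averaged 0.0951 to 0.354 CPM in T1074 while its keratins KRT7, KRT8, KRT18 and KRT19 were at 64.0 to 616 CPM. The 8 mesenchymal markers summed to 76.0 to 118 CPM in PEO-4 libraries, 2528 to 4092 CPM in SKOV-3 libraries and 1740 to 4527 CPM in T1074 libraries. They did not share an order. VIM averaged 0.125, 1693 and 634 CPM in PEO-4, SKOV-3 and T1074, whereas THY1 averaged 81.7, 1.20 and 45.1 CPM. PDGFRB averaged 0.323, 0.194 and 30.4 CPM. The part of these marker differences in the results on single serpins was not tested. The 3 hepatocyte markers, for the main source of plasma serpins, summed to at most 0.193 CPM in any library. The 3 leukocyte markers summed to 0.498 to 0.580 CPM in PEO-4 libraries, 0.0769 to 0.107 CPM in SKOV-3 libraries and 1.72 to 7.86 CPM in T1074 libraries, mostly from CD14, and PTPRC averaged at most 0.115 CPM in a line. In bulk RNA, fewer cells that express a gene and less RNA per cell cannot be told apart.

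The serpins fell more often than they rose in PEO-4 against T1074, and were split evenly in SKOV-3 against T1074. Of the 35 serpins, 17 had enough counts to be tested, and 10 of these reached a mean of 10 CPM in a line. SERPINB7 passed the filter on low counts only through PEO-4, and SERPINA5 only through SKOV-3. The filter thus favoured their calls in that direction, which enter the counts below. In PEO-4 against T1074, 3 of the 17 were higher and 11 lower (edgeR quasi-likelihood test, Benjamini-Hochberg adjusted p under 0.05), where 36.3% of the 19898 genes tested were higher and 37.8% lower. In SKOV-3 against T1074, 7 serpins were higher and 7 lower, where 33.3% and 34.5% of all genes were. In PEO-4 against SKOV-3, 7 serpins were higher and 8 lower, where 38.5% and 36.7% of all genes were. The median log2 fold change of the 17 serpins was -1.34 in PEO-4 against T1074, -0.09 in SKOV-3 against T1074 and -0.60 in PEO-4 against SKOV-3, beside medians over all tested genes of -0.01, -0.03 and 0.05. Any difference among the 3 lines was called for 16 of the 17 serpins, all but SERPIND1 (adjusted p = 0.0527), where 90.4% of all genes were called. The 3 comparisons share libraries pairwise, so that their counts are not independent. The libraries of the 2 lines did not overlap for 11 of 17 serpins in PEO-4 against T1074, 14 in SKOV-3 against T1074 and 14 in PEO-4 against SKOV-3, which was the case for 66.6%, 60.3% and 75.7% of all tested genes.

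**Figure D1:**
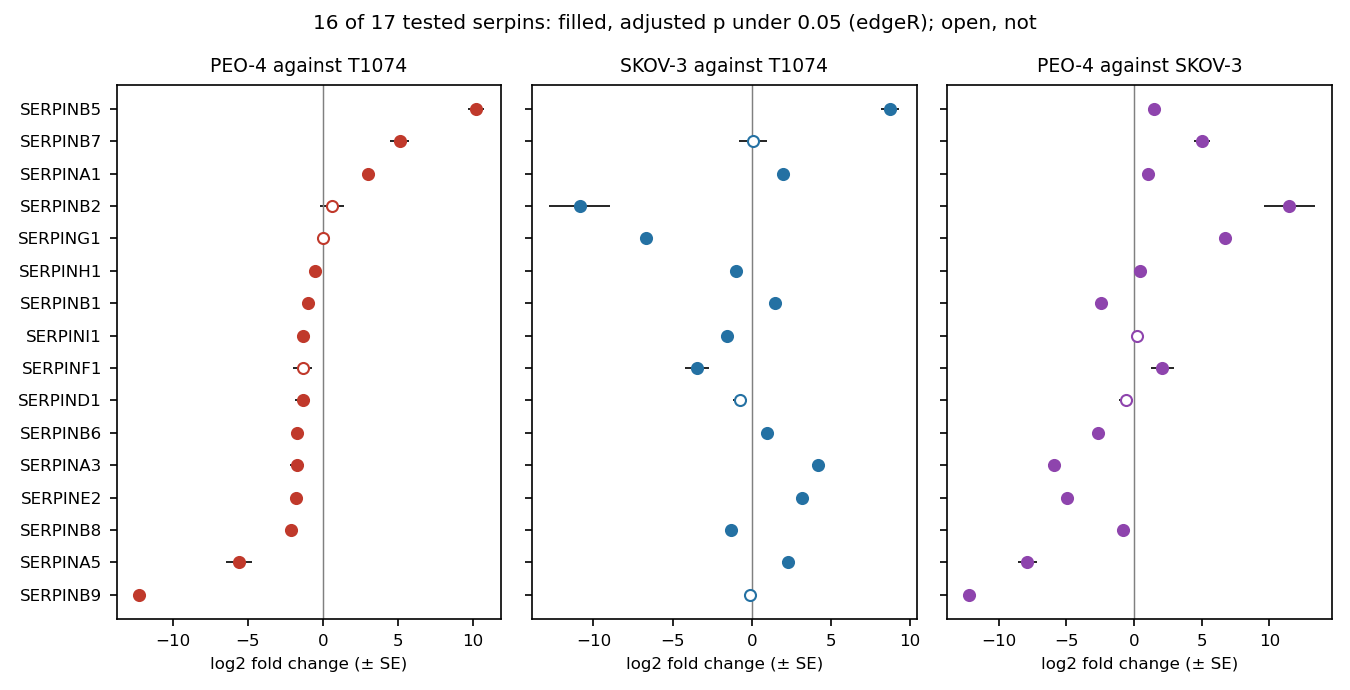
Log2 fold changes (x axis, ± SE) of 16 of the 17 tested serpins (rows) in PEO-4 against T1074, SKOV-3 against T1074 and PEO-4 against SKOV-3, with filled points where the edgeR adjusted p was under 0.05 and open points where it was not. SERPINB8, SERPINH1 and SERPINI1 were lower in both carcinoma lines than in T1074 and SERPINB5 and SERPINA1 higher in both, while SERPINB1, SERPINB6, SERPINE2, SERPINA3 and SERPINA5 were lower in PEO-4 and higher in SKOV-3. The fitted values of SERPINB2, SERPINA5, SERPINB5 and SERPINB9 against a line at or near 0 counts depend on the prior count of the fit.

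On a scale per length, the serpins together took 59.2 ± 10.2 TPM (counts scaled by transcript length and by library) in PEO-4, 160.8 ± 26.2 TPM in SKOV-3 and 229 ± 52.5 TPM in T1074 (SD, n = 4 each). No PEO-4 library overlapped one of the other lines, with a highest value of 69.9 TPM in PEO-4, a lowest of 136.7 TPM in SKOV-3 and a lowest of 172 TPM in T1074, while the ranges of SKOV-3 and T1074 overlapped. When TPM was rescaled to protein-coding genes alone, the sums were 432 ± 51.1, 997 ± 62.7 and 1185 ± 262, in the same order of means. A single gene, SERPINH1, gave 68.0% of the serpin TPM in PEO-4, followed by SERPINB6 with 10.4%. In SKOV-3 the first places were shared by SERPINB6 (30.0%), SERPINE2 (29.0%) and SERPINH1 (23.4%), and the ranges of SERPINB6 (27.5% to 33.5%) and SERPINE2 (25.8% to 31.2%) over libraries overlapped. In T1074, SERPINH1 gave 44.1% and SERPINB6 15.03%.

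Among the inhibitors of plasminogen activation, SERPINE2 was highest in SKOV-3 and SERPINB2 was without counts there. SERPINE2, protease nexin 1, is held at the cell surface and matrix by heparan sulfate and inhibits thrombin, urokinase and plasmin. Its levels were 10.2, 6.76, 10.3 and 9.19 CPM in PEO-4, 309, 266, 321 and 224 CPM in SKOV-3, and 19.3, 35.4, 35.9 and 35.4 CPM in T1074. SKOV-3 was highest and PEO-4 lowest with no overlap, and T1074 replicate 1 stood below its group. SERPINE2 was lower in PEO-4 than in T1074 (log2 fold change -1.79 ± 0.20, adjusted p = 1.6e-06) and higher in SKOV-3 than in T1074 (3.15 ± 0.21, adjusted p = 8.8e-09), and -4.94 ± 0.23 separated PEO-4 from SKOV-3 (adjusted p = 1.6e-10). SERPINB2, plasminogen activator inhibitor type 2, is also found outside the cell and inhibits urokinase. PEO-4 had 2.96, 13.3, 12.8 and 3.72 CPM, SKOV-3 was at 0 in all 4 libraries, and T1074 had 3.46, 0.550, 15.5 and 1.99 CPM. Replicates 2 and 3 of PEO-4 and replicate 3 of T1074 stood above the rest of their lines, and the ranges of these lines overlapped. Against a floor of 3 counts per library, SERPINB2 in SKOV-3 was at least 89.0-fold lower than in T1074, and in PEO-4 at least 135-fold higher than in SKOV-3 (edgeR adjusted p = 0.00038 and 0.00017). The difference of PEO-4 from T1074 did not pass the test (log2 fold change 0.60 ± 0.81, adjusted p = 0.52), and without T1074 replicate 3 it was 2.12 with an adjusted p of 0.0155. Without that library the bound for SKOV-3 was at least 33.1-fold lower than T1074.

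The plasminogen genes around these serpins did not share a direction. Of 16 tested members of the plasminogen activation and clearance list, which holds activators, receptors and plasminogen itself, 5 were higher and 9 lower in PEO-4 than in T1074 (median log2 fold change -1.01), 5 higher and 8 lower in SKOV-3 than in T1074 (-0.60), and 4 higher and 8 lower in PEO-4 than in SKOV-3 (-0.89). The shares over all genes were 36.3% higher and 37.8% lower, 33.3% and 34.5%, and 38.5% and 36.7% in these comparisons. The members of highest TPM were ENO1, ANXA2, S100A10 and LRPAP1. ANXA2 and S100A10 form a cell surface receptor of plasminogen. ANXA2 averaged 309 ± 56.7 CPM in PEO-4, 1084 ± 109 CPM in SKOV-3 and 604 ± 214 CPM in T1074 (SD, n = 4 each), lower in PEO-4 (log2 fold change -0.97, adjusted p = 0.00070) and higher in SKOV-3 (0.84, adjusted p = 0.0023) than in T1074. S100A10 was lower in both carcinoma lines (-1.25 and -0.80, adjusted p = 0.00093 and 0.019). LRPAP1, the chaperone of the receptor that clears complexes of serpin and protease, was higher in both (0.99 and 0.96, adjusted p = 5.8e-07 and 1.1e-06). That receptor, LRP1, was not called in PEO-4 against T1074 (-0.20, adjusted p = 0.28) and was lower in SKOV-3 (-1.85, adjusted p = 2.3e-07). ENO1, a glycolytic enzyme that also binds plasminogen, was higher in both carcinoma lines (0.53 and 1.85, adjusted p = 0.0024 and 2.9e-08).

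The plasminogen activators, which SERPINE2, SERPINB2 and SERPINI1 meet, are named here for that role, after their values were seen. PLAU, which encodes urokinase, averaged 6.92 ± 3.73 CPM in PEO-4, 97.4 ± 24.4 CPM in SKOV-3 and 69.1 ± 34.0 CPM in T1074, lower in PEO-4 than in T1074 (log2 fold change -3.32 ± 0.43, adjusted p = 6.6e-06) and not called in SKOV-3 against T1074 (0.50 ± 0.39, adjusted p = 0.27). PLAT, which encodes tissue plasminogen activator, averaged 195 ± 17.7 CPM in PEO-4, 10.1 ± 3.10 CPM in SKOV-3 and 30.8 ± 10.3 CPM in T1074. PLAT was thus higher in PEO-4 (2.66 ± 0.23, adjusted p = 1.2e-07) and lower in SKOV-3 (-1.62 ± 0.23, adjusted p = 2.1e-05) than in T1074. The urokinase receptor PLAUR was lower in both (-1.51 ± 0.37 and -1.11 ± 0.36, adjusted p = 0.0018 and 0.014).

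SERPING1, the C1 inhibitor, blocks the complement proteases C1r and C1s as well as kallikrein. It was near 0 in SKOV-3 and alike on average in the other lines: 11.2, 10.4, 12.3 and 9.39 CPM in PEO-4, 0.117, 0.0576, 0.150 and 0.0820 CPM in SKOV-3, and 8.78, 8.34, 13.4 and 12.5 CPM in T1074. SKOV-3 lay below every library of the other lines, and those of PEO-4 lay within the range of T1074. The log2 fold change was -6.70 ± 0.27 in SKOV-3 against T1074 (adjusted p = 6.8e-11) and 6.71 ± 0.27 in PEO-4 against SKOV-3 (adjusted p = 5.0e-11). In PEO-4 against T1074 it was 0.01 ± 0.18 (adjusted p = 0.98). Its target proteases followed another order. C1R averaged 15.3 ± 2.74 CPM in PEO-4, 30.5 ± 3.34 CPM in SKOV-3 and 519 ± 200 CPM in T1074, and C1S 0.733 ± 0.149, 33.7 ± 9.12 and 271 ± 90.7 CPM. Both were lower in both carcinoma lines than in T1074, by log2 fold changes of -5.09 and -4.09 for C1R (adjusted p = 5.1e-10 and 4.2e-09) and of -8.52 and -3.01 for C1S (adjusted p = 2.6e-11 and 6.3e-08).

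These are members of the list of other serine proteases and their cofactors, of which 22 of 35 genes were tested. In PEO-4 against T1074, 12 were higher and 8 lower (median log2 fold change 1.06), in SKOV-3 against T1074 8 higher and 7 lower (-0.27), and in PEO-4 against SKOV-3 12 higher and 10 lower (1.66). In SKOV-3 against T1074 this was close to the shares of all genes, 33.3% higher and 34.5% lower, while those in PEO-4 were 36.3% and 37.8% against T1074 and 38.5% and 36.7% against SKOV-3. The 4 members of highest TPM, C1R, C1S, F3 and HTRA1, were all lower in PEO-4 than in T1074, unlike the 12 members that were higher. F3, tissue factor, which starts coagulation, was lower in PEO-4 than in T1074 (-5.05, adjusted p = 1.3e-07) and not called in SKOV-3 against T1074 (-0.20, adjusted p = 0.64). HTRA1, a secreted matrix protease, was lower in PEO-4 (-1.75, adjusted p = 0.00014) and higher in SKOV-3 (1.17, adjusted p = 0.0035). The leukocyte proteases CTSG and GZMB, targets of SERPINA3, SERPINB1 and SERPINB9, were at 0 counts in all 12 libraries. The other leukocyte genes on the list (ELANE, PRTN3, AZU1, GZMA and GZMM) averaged at most 0.191 CPM in a line.

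SERPINH1, the collagen chaperone of the endoplasmic reticulum also called HSP47, was the serpin of highest TPM in PEO-4 and T1074. Its levels were 251, 308, 247 and 248 CPM in PEO-4, 207, 191, 197 and 176 CPM in SKOV-3, and 272, 391.5, 397 and 483 CPM in T1074. SKOV-3 lay below every library of the other lines. PEO-4 overlapped T1074 in 1 library of each, since PEO-4 replicate 2 stood above T1074 replicate 1. The change was small beside those above, with log2 fold changes of -0.55 ± 0.15 in PEO-4 against T1074 (adjusted p = 0.0041), -1.003 ± 0.15 in SKOV-3 against T1074 (adjusted p = 3.6e-05) and 0.45 ± 0.15 in PEO-4 against SKOV-3 (adjusted p = 0.013). The last was not called on counts from length-scaled TPM (0.33, adjusted p = 0.0514). A processed pseudogene, SERPINH1P1, which may share reads with it, averaged at most 1.34 CPM in a line.

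Of the 3 collagen genes among the mesenchymal markers, clients of SERPINH1, COL1A1 averaged 0.750 ± 0.442 CPM in PEO-4, 18.4 ± 10.2 CPM in SKOV-3 and 486 ± 295 CPM in T1074 (SD, n = 4 each), and COL3A1 averaged 9.12 ± 2.87, 1.45 ± 0.988 and 394 ± 286 CPM, whereas COL1A2 was low in each line with 0.0651 ± 0.0186, 3.65 ± 2.09 and 0.612 ± 0.560 CPM. Of 24 tested genes for collagen folding and modification, 5 were higher and 14 lower in PEO-4 than in T1074 (median log2 fold change -1.37), 5 higher and 11 lower in SKOV-3 than in T1074 (-0.45), and 5 higher and 12 lower in PEO-4 than in SKOV-3 (-0.57). Over all genes tested, 36.3% were higher and 37.8% lower in the first comparison, 33.3% and 34.5% in the second, and 38.5% and 36.7% in the third. The 4 members of highest TPM are also general folding factors, and none of them was among the 14 lower in PEO-4 than in T1074. P4HB, the disulfide isomerase that is a subunit of prolyl hydroxylase, was higher in both carcinoma lines than in T1074 (0.73 and 0.61, adjusted p = 0.00093 and 0.0041). HSPA5, the main chaperone of the endoplasmic reticulum, was called only in SKOV-3 against T1074 (0.75, adjusted p = 0.043), where its T1074 libraries averaged 666 ± 404 CPM. PPIB, a prolyl isomerase, was called only in PEO-4 against SKOV-3 (-0.53, adjusted p = 0.0093), and PDIA3 in no comparison (adjusted p from 0.071 to 0.98).

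**Figure D2:**
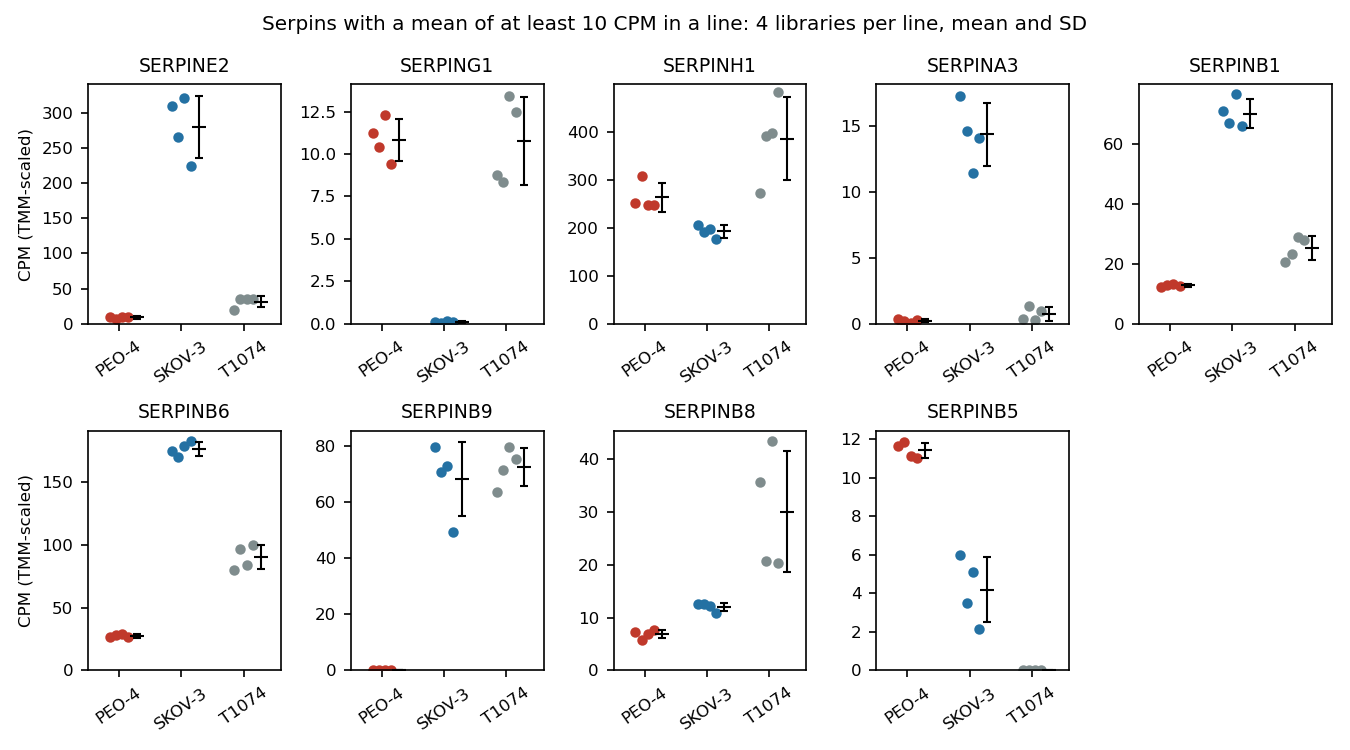
TMM-scaled CPM (y axis, linear, from 0, with a scale per panel) of 9 serpins with a mean of at least 10 CPM in a line, with a point for each of the 4 libraries of PEO-4, SKOV-3 and T1074 and the mean with its SD beside them. SERPINE2, SERPINB1, SERPINB6 and SERPINA3 are highest in SKOV-3, SERPINB5 is highest in PEO-4, SERPINB9 is near 0 in PEO-4 and SERPING1 near 0 in SKOV-3.

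The intracellular serpins of chromosome 6, SERPINB1, SERPINB9 and SERPINB6, lie side by side within chr6:2832332-2972165 (GRCh38), and all 3 were lowest in PEO-4. SERPINB1 inhibits elastase, cathepsin G and other granule proteases of neutrophils. It had 12.2, 13.1, 13.2 and 12.8 CPM in PEO-4, 71.1, 67.0, 76.7 and 65.9 CPM in SKOV-3, and 20.7, 23.5, 28.9 and 28.2 CPM in T1074. The lines did not overlap, and the log2 fold changes were -0.98 ± 0.11 in PEO-4 against T1074 (adjusted p = 2.0e-06) and 1.47 ± 0.11 in SKOV-3 against T1074 (adjusted p = 4.0e-08). SERPINB6, which inhibits cathepsin G and trypsin-like proteases and is the serpin of highest TPM in SKOV-3, kept the same order. Its levels were 26.5, 28.6, 28.8 and 26.3 CPM in PEO-4, 175, 170.1, 179 and 183 CPM in SKOV-3, and 80.4, 96.9, 83.9 and 99.8 CPM in T1074. It was lower in PEO-4 (-1.71 ± 0.10, adjusted p = 1.1e-09) and higher in SKOV-3 (0.97 ± 0.09, adjusted p = 4.4e-07) than in T1074.

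SERPINB9, the granzyme B inhibitor that guards cells against cytotoxic lymphocytes, lies between these genes and was almost without counts in PEO-4. It had 0.0293, 0.0241, 0 and 0 CPM in PEO-4, which was 2 counts in all, 79.9, 70.8, 73.1 and 49.6 CPM in SKOV-3, and 63.8, 71.5, 79.7 and 75.5 CPM in T1074. SKOV-3 and T1074 overlapped and did not pass the test (log2 fold change -0.09 ± 0.15, adjusted p = 0.62). By the ratio of scaled summed counts, SERPINB9 was 6217-fold lower in PEO-4 than in T1074, with a 95% interval of 1721 to 51344 that covers counting error only, and 5766-fold lower than in SKOV-3 (1596 to 47618), with edgeR adjusted p of 9.5e-13 and 1.3e-12. Without PEO-4 replicate 1 or 2, each with 1 of the counts, the ratio to T1074 was 9912 or 9373, within that interval. The long noncoding RNA SERPINB9P1 averaged 0.130 CPM in PEO-4, 1.37 CPM in SKOV-3 and 0.432 CPM in T1074.

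Promoter sequence is shown for a pair of serpins that were at or near 0 counts in a line and expressed in the others. The 300 bases around the RefSeq start of SERPINB9 (chr6:2903260-2903559, minus strand) are shown beside those of SERPINB2, which was at 0 in SKOV-3 (chr18:63887455-63887754, plus strand), both on GRCh38.p14 and 5′ to 3′, with each CG dinucleotide in capitals.
SERPINB9: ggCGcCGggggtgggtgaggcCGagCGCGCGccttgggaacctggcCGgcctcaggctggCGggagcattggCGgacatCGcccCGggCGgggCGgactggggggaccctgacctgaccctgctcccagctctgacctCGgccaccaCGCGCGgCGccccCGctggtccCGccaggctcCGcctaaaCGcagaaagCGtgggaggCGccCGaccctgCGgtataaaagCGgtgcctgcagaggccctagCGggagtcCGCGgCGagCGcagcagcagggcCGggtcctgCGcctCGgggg
SERPINB2: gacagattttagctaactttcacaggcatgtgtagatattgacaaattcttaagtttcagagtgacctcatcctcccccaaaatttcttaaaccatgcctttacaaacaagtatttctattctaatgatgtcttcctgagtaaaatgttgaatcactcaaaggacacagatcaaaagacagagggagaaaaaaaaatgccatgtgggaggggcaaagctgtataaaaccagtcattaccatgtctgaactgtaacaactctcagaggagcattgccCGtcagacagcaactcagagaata
The window of SERPINB9 holds 35 CG dinucleotides and that of SERPINB2 holds 1. RefSeq windows matched 27 of the 35 serpins. Among the 8 matched serpins that reached 10 CPM in a line, 5 held at least 15 (SERPINB9, SERPINB6, SERPINH1, SERPINB1 and SERPINB5, with 35, 32, 28, 27 and 16), against 0 of the 19 other matched serpins and 48.9% of all 35116 windows in the table. Of the 8, SERPINB8, SERPINE2 and SERPINA3 held 9, 8 and 3. The 19 others held up to 14, so that the split depends on the cut at 15. The windows of SERPINE2 (chr2:224031429-224031728) and SERPINA1 (chr14:94390586-94390885) do not hold the starts of their leading transcripts, at 224039286 and 94388847. That of SERPINB6 does not hold the start of the transcript that led in PEO-4, at 2971206. The tally therefore need not describe the promoters in use. DNA methylation was not measured in these libraries.

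SERPINB8, an inhibitor of furin-like and trypsin-like proteases, lies on chromosome 18 and was highest in T1074. It had 7.17, 5.84, 6.94 and 7.61 CPM in PEO-4, 12.5, 12.6, 12.1 and 10.9 CPM in SKOV-3, and 35.6, 20.6, 43.4 and 20.3 CPM in T1074. The lines did not overlap, and the T1074 libraries fell into a higher and a lower pair. It was lower than in T1074 in PEO-4 (log2 fold change -2.12 ± 0.22, adjusted p = 7.1e-07) and in SKOV-3 (-1.31 ± 0.21, adjusted p = 7.6e-05), and lower in PEO-4 than in SKOV-3 (-0.81 ± 0.22, adjusted p = 0.0036).

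SERPINB5, maspin, a serpin without inhibitory function that is typical of epithelial cells, had the reverse pattern. It had 11.7, 11.8, 11.1 and 11.03 CPM in PEO-4 and 5.98, 3.52, 5.10 and 2.17 CPM in SKOV-3, and T1074 held 1 count in 1 of its 4 libraries. The ratio of scaled summed counts to T1074 was 1646 in PEO-4 (95% interval 295 to 65034) and 606 in SKOV-3 (109 to 23984), intervals that cover counting error only, with adjusted p of 5.5e-10 and 6.7e-09. Without T1074 replicate 3, which held the count, T1074 was at 0 and the bounds were at least 116-fold in PEO-4 and at least 42.8-fold in SKOV-3, against a floor of 3 counts per library. PEO-4 was higher than SKOV-3 by a log2 fold change of 1.44 ± 0.26 (adjusted p = 0.00013) with no overlap. EPCAM and CDH1, the epithelial markers above, averaged 163 and 148 CPM in PEO-4, 24.5 and 25.9 CPM in SKOV-3, and 0.0964 and 0.354 CPM in T1074. Other epithelial markers had another order, such as KRT8 with 584, 437 and 616 CPM and KRT7 with 463, 501 and 157 CPM in these lines, and the 8 together summed to 3061 to 4008 CPM in PEO-4 libraries, 1023 to 1935 CPM in SKOV-3 libraries and 710.5 to 1942 CPM in T1074 libraries. Their part in the result was not tested.

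SERPINB5 and SERPINB8 are the outer genes of a row of 10 SERPINB genes at chr18:63476958-64019779, of which 4 reached a mean of 1 CPM in PEO-4, 2 in SKOV-3 and 2 in T1074. Between them, SERPINB7, SERPINB2 and SERPINB10 are neighbours. SERPINB7, known from skin and kidney, had 1.08, 3.86, 2.71 and 1.32 CPM in PEO-4, 0.0975, 0.0769, 0.0214 and 0.0615 CPM in SKOV-3, and 0.0502, 0, 0.147 and 0.0497 CPM in T1074. PEO-4 lay above both other lines (log2 fold changes 5.11 ± 0.63 against T1074 and 5.05 ± 0.59 against SKOV-3, adjusted p = 4.0e-06 and 2.3e-06), and the first was 6.14 without T1074 replicate 3. SERPINB7 was tested only because of PEO-4, with 384 counts there, 13 in SKOV-3 and 9 in T1074. The filter thus favoured a call in this direction. SERPINB10, a serpin of blood cells that was not tested because of its low counts, had 0.0586, 0.217, 0.322 and 0.0649 CPM in PEO-4. Replicates 2 and 3 of PEO-4 were above replicates 1 and 4 for each of SERPINB7, SERPINB2 and SERPINB10. The genes SERPINB12, SERPINB13, SERPINB4, SERPINB11 and SERPINB3, which lie between SERPINB5 and SERPINB7, averaged at most 0.0704 CPM in any line. SERPINB3 and SERPINB4 are nearly identical, so that their counts depend on how reads were divided.

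**Figure D3:**
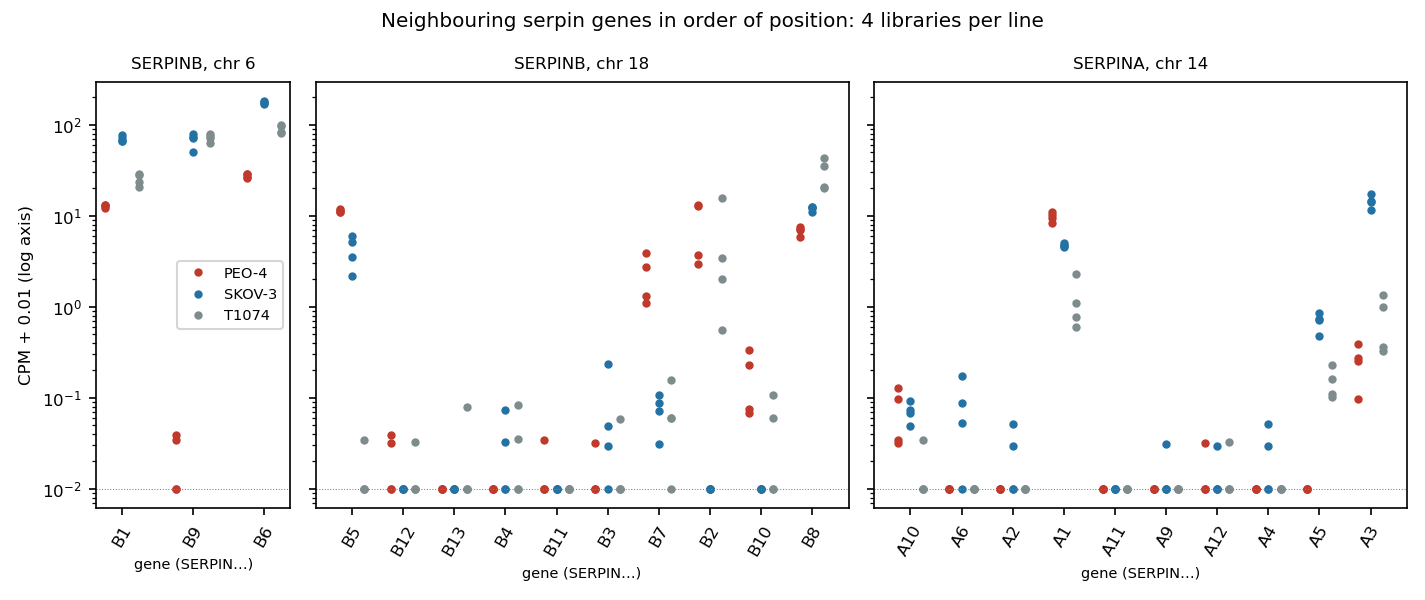
CPM plus 0.01 on a log axis (y) for the serpin genes of chromosomes 6, 18 and 14 in their order along the chromosome (x), with a point for each of the 4 libraries of PEO-4, SKOV-3 and T1074 and values of 0 on the dotted line. SERPINB9 of PEO-4 lies at the bottom between SERPINB1 and SERPINB6, and SERPINB7 and SERPINB2 of PEO-4 lie above a stretch of genes near 0.

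A list of cathepsins and caspases, proteases within the cell, was mostly lower in PEO-4 than in either other line. The list was not limited to known targets of clade B serpins, and whether the serpins expressed here meet its members was not tested. Of 14 tested genes, 1 was higher and 11 lower in PEO-4 than in T1074 (median log2 fold change -0.96), 6 higher and 3 lower in SKOV-3 than in T1074 (0.26), and 2 higher and 11 lower in PEO-4 than in SKOV-3 (-0.88). Of all genes, 37.8% were lower in PEO-4 than in T1074 and 36.7% lower than in SKOV-3, with 36.3% and 38.5% higher, and 33.3% were higher and 34.5% lower in SKOV-3 than in T1074. CTSB, a lysosomal cysteine protease, averaged 208 ± 12.2 CPM in PEO-4, 992 ± 45.3 CPM in SKOV-3 and 373 ± 59.4 CPM in T1074, lower in PEO-4 (-0.84, adjusted p = 1.5e-05) and higher in SKOV-3 (1.41, adjusted p = 1.1e-07) than in T1074. CTSD, a lysosomal aspartic protease, was higher in SKOV-3 (3.22, adjusted p = 6.9e-10) and not called in PEO-4 against T1074 (-0.24, adjusted p = 0.17). CTSZ was lower in PEO-4 (-0.33, adjusted p = 0.0058) and higher in SKOV-3 (0.27, adjusted p = 0.021), and CTSC was higher in SKOV-3 (0.33, adjusted p = 0.023), with 0.05 and an adjusted p of 0.70 in PEO-4.

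SERPINB6 was the only serpin with a mean of 10 TPM in a line whose leading transcript differed between lines. ENST00000380529.5 led in PEO-4, with 34.3%, 31.7%, 33.5% and 30.6% of the TPM of the gene, against 8.09%, 12.8%, 10.4% and 13.1% in SKOV-3 and 11.2%, 9.87%, 13.5% and 11.6% in T1074. ENST00000380539.7 led in SKOV-3 with 46.8% to 55.3% and in T1074 with 45.6% to 56.6%, and took 19.2%, 22.1%, 29.3% and 32.4% in PEO-4, where it exceeded the other in replicate 4. The PEO-4 libraries did not overlap those of the other lines for either share. Both have 7 exons and the same 376 codons from the same coding start, and differ in their first exon, which begins at position 2971206 in ENST00000380529.5 and at 2971567 in ENST00000380539.7 on the minus strand of chromosome 6. In the test over all transcripts, ENST00000380539.7 was lower in PEO-4 than in T1074 (log2 fold change -2.67 ± 0.18, adjusted p = 4.7e-07), whereas ENST00000380529.5 was at -0.15 ± 0.16 (adjusted p = 0.51). In SKOV-3 against T1074 they were higher by 1.14 ± 0.17 and 1.13 ± 0.16 (adjusted p = 0.00027 and 0.00023). Another transcript with the same number of codons, ENST00000380546.7, took between 2.83% and 8.22% in PEO-4, between 18.4% and 21.2% in SKOV-3, and between 6.41% and 13.97% in T1074. RSEM estimates how reads shared by transcripts are divided, so that these shares are estimates. Of 63 tested transcripts of serpin genes, 40 differed among the lines, where 58.1% of all tested transcripts did.

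**Figure D4:**
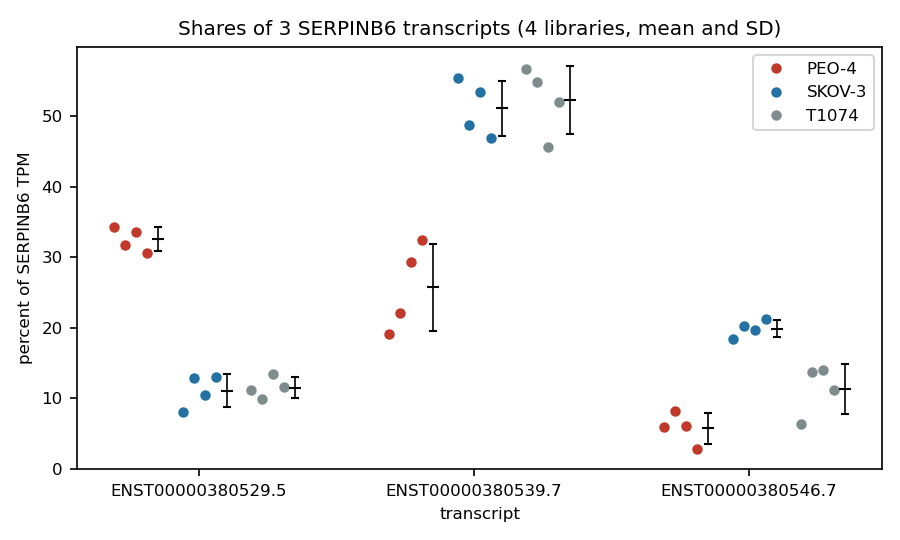
Percent of the TPM of SERPINB6 (y axis, from 0) given by 3 of its transcripts (x axis), with a point for each of the 4 libraries of PEO-4, SKOV-3 and T1074 and the mean with its SD beside them. ENST00000380529.5 lies above 30% in PEO-4 and below 14% in the other lines, and ENST00000380539.7 lies below 33% in PEO-4 and above 45% in the other lines.

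The secreted clade A serpins of chromosome 14, best known as plasma proteins of the liver, were low apart from SERPINA1 and SERPINA3. SERPINA1, the elastase inhibitor of plasma, had 8.26, 10.9, 10.2 and 9.39 CPM in PEO-4, 4.80, 4.55, 4.65 and 5.00 CPM in SKOV-3, and 0.753, 1.08, 0.588 and 2.29 CPM in T1074. The lines did not overlap, and both carcinoma lines were higher than T1074 (log2 fold changes 3.01 ± 0.31 and 1.98 ± 0.31, adjusted p = 6.7e-07 and 4.8e-05), with PEO-4 above SKOV-3 (1.03 ± 0.28, adjusted p = 0.0039). SERPINA3, an inhibitor of cathepsin G and chymase that rises in acute inflammation, had 0.381, 0.241, 0.0860 and 0.263 CPM in PEO-4, 17.3, 14.6, 11.4 and 14.1 CPM in SKOV-3, and 0.351, 1.33, 0.318 and 0.995 CPM in T1074. SKOV-3 stood above all other libraries (4.19 ± 0.38 against T1074, adjusted p = 2.6e-07), and PEO-4 overlapped T1074 but was lower in the fit (-1.73 ± 0.47, adjusted p = 0.0042). SERPINA5, the protein C inhibitor, was at 0 in all PEO-4 libraries, had 0.838, 0.711, 0.471 and 0.717 CPM in the SKOV-3 libraries and ranged from 0.0916 to 0.220 CPM in T1074. It was at least 9.45-fold lower in PEO-4 than in SKOV-3 against a floor of 3 counts per library (adjusted p = 8.1e-07). It was higher in SKOV-3 than in T1074 (2.28 ± 0.37, adjusted p = 0.00019), which was not called on counts from length-scaled TPM (1.29, adjusted p = 0.0502), and lower in PEO-4 than in T1074 (adjusted p = 0.00013). The T1074 libraries together held only 20 counts of SERPINA5. It was tested only because of SKOV-3, with 137 counts there, so that the filter favoured calls with SKOV-3 higher. SERPINA4 overlaps SERPINA5 on the same strand, so that reads there cannot be fully told apart.

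Of the remaining tested serpins, SERPINI1, neuroserpin, an inhibitor of tissue plasminogen activator, had 1.14, 0.989, 1.33 and 0.973 CPM in PEO-4, 0.916, 0.769, 1.05 and 1.09 CPM in SKOV-3, and 1.61, 3.02, 3.99 and 2.49 CPM in T1074. It was lower in both carcinoma lines than in T1074 (-1.34 ± 0.26 and -1.55 ± 0.26, adjusted p = 0.00032 and 0.00010) with no overlap, and PEO-4 against SKOV-3 did not pass the test (0.22 ± 0.27, adjusted p = 0.47). SERPINF1, an antiangiogenic serpin that does not inhibit proteases, averaged 0.168 ± 0.130 CPM in PEO-4, 0.0343 ± 0.0325 CPM in SKOV-3 and 0.384 ± 0.285 CPM in T1074. It was lower in SKOV-3 than in T1074 (-3.44 ± 0.77, adjusted p = 0.0011, and -4.13 without SKOV-3 replicate 2), while PEO-4 against T1074 missed the threshold (-1.34 ± 0.63, adjusted p = 0.068) and passed it without PEO-4 replicate 1 (-1.80, adjusted p = 0.031), without T1074 replicate 1 (-1.62, adjusted p = 0.023) or without T1074 replicate 3 (-1.54, adjusted p = 0.0499), and with scaling by library size alone (-1.54, adjusted p = 0.036). PEO-4 was higher than SKOV-3 (2.10 ± 0.86, adjusted p = 0.038), a call that was lost without PEO-4 replicate 1 or 2 or without SKOV-3 replicate 1, 3 or 4 (1.56 to 2.14, adjusted p 0.057 to 0.13) and with limma on log2(CPM + 1) (0.17, adjusted p = 0.23), and was 2.79 without SKOV-3 replicate 2 (adjusted p = 0.026). SERPIND1, heparin cofactor II, averaged 0.141 ± 0.107 CPM in PEO-4, 0.204 ± 0.0962 CPM in SKOV-3 and 0.348 ± 0.0605 CPM in T1074. It lies within PI4KA on the opposite strand, which averaged 30.5 CPM in PEO-4, 138 CPM in SKOV-3 and 109 CPM in T1074, and the strand setting of the counting is not given in the sources used here. Its call in PEO-4 against T1074 (-1.35 ± 0.50, adjusted p = 0.024) was lost without PEO-4 replicate 2, 3 or 4 or without T1074 replicate 4 (-1.23 to -0.91, adjusted p 0.062 to 0.12), with DESeq2 (-1.28, adjusted p = 0.058) and on counts from length-scaled TPM (-1.24, adjusted p = 0.089).

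The other 18 serpins did not pass the filter on low counts, with at most 15 counts in a library and a mean of at most 0.223 CPM in a line. SERPINA7 and SERPINA11 had 0 counts in all 12 libraries. Of the main plasma inhibitors, SERPINC1, antithrombin, had 3 counts in all PEO-4 libraries together, 11 in SKOV-3 and 2 in T1074, and SERPINF2, the plasmin inhibitor, had 38, 7 and 8. SERPINB10 had 29 counts in PEO-4, 0 in SKOV-3 and 5 in T1074, and SERPINA6, which carries cortisol in plasma, had 14 in SKOV-3 alone. SERPINA10, the inhibitor of coagulation factor Xa that works with protein Z, had 10, 12 and 1. The others (SERPINA2, SERPINA4, SERPINA9, SERPINA12, SERPINB3, SERPINB4, SERPINB11, SERPINB12, SERPINB13, SERPINE3 and SERPINI2) had 0 to 14 counts per line, and SERPINE3 lies opposite to INTS6. By a rule of counts above 0 in at least 3 of 4 libraries, 19 serpins were expressed in PEO-4, 22 in SKOV-3 and 18 in T1074, but a mean of at least 1 CPM was reached by 11, 10 and 11, which is another order of the lines. A mean of at least 10 CPM was reached by 5, 8 and 8.

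Inhibitors mostly of other families were also counted. The list also holds AGT, angiotensinogen, a clade A serpin that the symbol rule leaves out and that does not inhibit proteases. Of 18 tested genes for Kunitz, Kazal, cystatin and other inhibitors, 10 were higher and 7 lower in PEO-4 than in T1074 (median log2 fold change 1.40), 11 higher and 2 lower in SKOV-3 than in T1074 (0.61), and 8 higher and 8 lower in PEO-4 than in SKOV-3 (-0.30). Beside these stand 36.3% of all genes higher and 37.8% lower, 33.3% and 34.5%, and 38.5% and 36.7%, so that the count of lower genes in PEO-4 against T1074 was near the share of all genes. SLPI, a secreted inhibitor of leukocyte elastase, averaged 37.5 ± 6.60 CPM in PEO-4, 289 ± 21.0 CPM in SKOV-3 and 0.151 ± 0.170 CPM in T1074 (log2 fold changes against T1074 7.75 and 10.70, adjusted p = 1.1e-10 and 1.1e-11). The cystatins CST3 and CSTB, inhibitors of cysteine cathepsins, were lower in PEO-4 than in T1074 (-0.92 and -1.03, adjusted p = 0.00024 and 3.8e-07) and higher in SKOV-3 (1.81 and 1.36, adjusted p = 4.8e-07 and 2.8e-08). PEBP1, a phosphatidylethanolamine-binding protein, was higher in both carcinoma lines (0.62 and 0.55, adjusted p = 3.7e-05 and 0.00014). AGT, counted among the 18, was higher in PEO-4 than in T1074 (2.18, adjusted p = 2.5e-05). It was not called in SKOV-3 against T1074 (0.43, adjusted p = 0.27).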

How the data were processed

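RNA of 4 replicates of each line was depleted of rRNA, made into directional paired-end libraries and sequenced. As the methods of the paper and the notes of the submitters state, the authors demultiplexed with bcl2fastq 2.20.0.422, trimmed with Trimmomatic 0.39, used STAR 2.7.3a to align them to hg38 and RSEM 1.3.1 to estimate abundances. The expected count that the authors deposited per transcript is an estimate of its fragments, not normalized, with shared reads divided among transcripts. The TPM deposited by the authors is the same estimate per effective length, scaled to a fixed sum.

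Here expected counts were summed per gene and rounded. Of 61533 gene IDs, 61369 matched GENCODE 44, which gave symbols and types. edgeR 4.0.16 (R 4.3.3) was used for the quasi-likelihood F-test in 1 fit of all 12 libraries, after filterByExpr by line (19898 genes, 76043 transcripts) and TMM scaling, with Benjamini-Hochberg adjustment over all features and a threshold of 0.05. CPM values are TMM-scaled. A line at 0 was compared through a floor of 3 counts per library. Such floors and intervals hold for counting error alone, because reads that carry no molecular identifier need not be separate molecules. Ratios with 1 or 2 counts have exact 95% intervals. The total count was 19780836 to 55739060 per library. The 18 pairs of replicates differed beyond sampling noise (chi-square per degree of freedom 26.0 to 336.5). It was 104 to 336.5 for pairs of T1074, 39.1 to 111 for PEO-4 and 26.0 to 89.6 for SKOV-3. The lines share an estimate of the spread in the fit, so that the spread of T1074 also enters PEO-4 against SKOV-3. The script was tested on simulated data.

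The members and the gene lists were chosen with earlier results of these data known. A serpin is counted but its values are not reported here. Every other serpin that the symbol rule takes in was accounted for. Those with a mean of at least 10 CPM in a line are given in every library, and each list by its 4 genes of highest TPM. The targets and receptor PLAU, PLAT and PLAUR, the clearance receptor LRP1, and the markers THY1 and PDGFRB were added after values were seen. So were AGT, the leukocyte genes of the protease list, and the library values of lower serpins. Alternatives were other scalings, DESeq2 1.42.0, limma 3.58.1 on log2(CPM + 1), other filters and thresholds, a replicate block, fits of 8 libraries, length-scaled TPM and leaving out each library.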

Additional observations from a re-analysis of the deposited data

Results flagged for a closer look

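Serpins with at least 10 counts were checked for a library far from the other 3 of its line, by the gap to the nearest library as a share of the range. This was done for 41 groups, of which chance flags about 1 in 20, and 2 were found. SERPINE2 in T1074 replicate 1 was at 19.3 CPM, where the other T1074 libraries were at 35.4 to 35.9 CPM. T1074 replicate 1 also had the lowest total count, and its part in this value was not tested. Without that library the log2 fold change of SERPINE2 was -1.96 in PEO-4 against T1074 and 2.99 in SKOV-3 against T1074. SERPINH1 in PEO-4 replicate 2 was at 308 CPM, where the other PEO-4 libraries were at 247 to 251 CPM. Without it the log2 fold change of SERPINH1 was -0.52 in PEO-4 against T1074 (edgeR adjusted p = 0.0084) and 0.42 in PEO-4 against SKOV-3 (adjusted p = 0.022).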

How the results depend on the processing

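No fold change of a tested serpin that was called turned its direction under any of the 24 alternatives. Of 51 results on single genes, 41 kept their side of the threshold under every alternative. The count of serpins higher in PEO-4 than in T1074 was 3, and 6 where every gene with at least 1 count was tested, which added SERPINA10, SERPINF2 and SERPINB10 (log2 fold changes 2.71, 1.99 and 2.22). The 6 counts over comparisons stayed within 1.5 times of the reported ones under the other alternatives, as did the count of serpins that differ among lines, which was not run with the limit on fold change or in the fits of 8 libraries. Leaving out each library in turn gave 3 to 4 serpins higher and 10 to 12 lower in PEO-4 against T1074, and 38 to 46 transcripts that differ among lines. Scaling by library size alone shifted the median of all genes by -0.16 in PEO-4 against T1074 and by -0.20 in SKOV-3 against T1074, and scaling over protein-coding genes by 0.10 in PEO-4 against T1074 and 0.12 in PEO-4 against SKOV-3. Where a log2 fold change of 1 or more in size was required, SERPINB1 and SERPINH1 in PEO-4 against T1074, SERPINB6 in SKOV-3 against T1074, and SERPINH1 and SERPINB8 in PEO-4 against SKOV-3 were no longer called.

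Replicate numbers did not pair the libraries, since the 12 correlations of deviations between same-numbered libraries were -0.08 to 0.07. With the replicate number as a block, the counts were 3 higher and 11 lower in PEO-4 against T1074, 7 and 7 in SKOV-3 against T1074, and 7 and 8 in PEO-4 against SKOV-3, and 35 transcripts differed in place of 40. With every gene tested, SERPINA6, SERPINB3, SERPINB10 and SERPINF2 also differed between PEO-4 and SKOV-3 and SERPINA6 and SERPINA10 between SKOV-3 and T1074, and DESeq2 called SERPINF2 and SERPINB10 in PEO-4 against SKOV-3 (adjusted p = 0.0025 and 0.00095) and SERPINF2 in PEO-4 against T1074 (adjusted p = 0.021). Depth limits the 18 serpins below the filter, which had at most 15 counts in a library, and the calls of SERPINF1, SERPIND1 and SERPINA5, which rest on under 1 CPM.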
